A study of Mus musculus with 13 samples.

Results

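The genes described here are 43 members of the Wnt pathway, chosen by symbol among the 32285 genes counted in mouse mammary fibroblasts. They comprise 11 ligands, 9 receptors, 10 secreted antagonists, 6 R-spondins and Lgr receptors and 7 feedback or nuclear genes, and all 43 were found in the count tables. Expression was measured by 10x Chromium 3′ single-cell RNA sequencing in 13 libraries. The 5 stages had 1 library each of Lineage-negative CD24-negative stromal cells from 2 pooled C57BL/6 wild-type females, at puberty (4 weeks by the labels), in the adult virgin (9 weeks), on day 14.5 of pregnancy, on day 10 of lactation and on day 4 of involution. Placebo and MPA+E had 2 libraries each, from the same strain and sort at 9 weeks, again with 2 females per library. MPA is medroxyprogesterone acetate, a synthetic progestin, and E is estradiol, both given as implanted pellets. The labels call the MPA+E libraries drug-treated. Hyperplasia and tumour had 2 libraries each of GFP-positive cells from raGFP-Wnt1 females (Pdgfra-GFP KI/+ MMTV-Wnt1 T/+, C57BL/6 FVB mixed background). Hyperplasia 1 and tumour 1 came from one mouse (45 weeks), and hyperplasia 2 and tumour 2 from another (17 weeks). In these mice the mouse mammary tumour virus promoter drives a Wnt1 transgene, mainly in mammary epithelium, and the GFP sort follows the Pdgfra promoter. A read of the transgene cannot be told apart from one of the endogenous Wnt1 gene in these counts.

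Wnt proteins are secreted, lipid-modified ligands that bind Frizzled receptors together with the co-receptors Lrp5 and Lrp6, which keeps β-catenin from being degraded and lets it act with Tcf and Lef factors on target genes. Frizzled-related proteins and Wif1 bind the ligands outside the cell, and the Dickkopf proteins Dkk1 and Dkk2 bind the co-receptors. Dkk3 is a divergent Dickkopf protein and is counted here with the antagonists by its family alone. R-spondins acting through Lgr receptors keep the ubiquitin ligases Znrf3 and Rnf43 from removing Frizzled, and Axin2, Nkd1 and Nkd2 are feedback genes. Notum is a feedback gene too, and because its product is a secreted enzyme that inactivates Wnt ligands it is counted here with the antagonists. In the mammary gland Wnt signals from luminal cells and from the stroma act on epithelial stem cells and branching, and Wnt4 is a known mediator of progesterone in the epithelium.

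Fibroblast barcodes were those with 500 to 7500 genes, at most 10% mitochondrial UMIs (unique molecular identifiers, each one counted transcript), at least 50 UMIs of Dcn, Lum and Col1a2 per 10000, and no UMI of Epcam, Pecam1, Rgs5, Sox10, Ptprc or Myog. A library kept 4236 (tumour 2) to 11951 (adult) of them, with a median of 3990 (pregnancy) to 20256 (tumour 2) UMIs per barcode. Levels are CPM, the UMIs of a gene per 1000000 UMIs, summed over the fibroblast barcodes of a library. In such sums fewer cells of a type and less RNA per cell cannot be told apart. The summed level of 5 epithelial markers was 33.4 CPM in the pregnancy library and at most 1.51 CPM in the other 12, and that of 3 pericyte markers was 9.48 CPM in tumour 1, 18.0 CPM in tumour 2 and at most 6.44 CPM elsewhere. Puberty held the highest Schwann marker sum, 48.0 CPM. Epcam, Pecam1, Rgs5, Sox10, Ptprc and Myog were at 0 by the rule. At most 0.540% of the barcodes of the smaller library of a pair were shared. The fibroblast marker Pdgfra was present in every library (117 CPM in tumour 2 to 622 CPM in MPA+E 1).

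The upstream sequences of 4 members are shown because the results below turn on these genes. Wnt1 and Wnt10b are neighbours read away from each other, and both were higher in the same fibroblast class. Wnt11 and Axin2 are a ligand and a feedback target that differed between conditions. Each run is the 250 bases before an annotated start, 5′ to 3′ in the direction of the gene, from RefSeq on GRCm38.p6. Capitals mark matches to CTTTGA or its reverse complement TCAAAG, the core that Tcf and Lef factors bind, or to ACANNNTGT, a steroid receptor core that is its own reverse complement. The Wnt1 run is chr15:98789607-98789856 (+), the Wnt10b run chr15:98778151-98778400 (-), the Wnt11 run, from the first of 2 annotated starts, chr7:98834862-98835111 (+) and the Axin2 run chr11:108920099-108920348 (+).
Wnt1: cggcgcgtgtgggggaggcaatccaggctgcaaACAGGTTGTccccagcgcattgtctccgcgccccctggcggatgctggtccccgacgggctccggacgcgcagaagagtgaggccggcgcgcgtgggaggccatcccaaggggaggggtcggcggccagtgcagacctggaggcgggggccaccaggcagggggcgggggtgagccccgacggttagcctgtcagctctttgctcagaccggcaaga
Wnt10b: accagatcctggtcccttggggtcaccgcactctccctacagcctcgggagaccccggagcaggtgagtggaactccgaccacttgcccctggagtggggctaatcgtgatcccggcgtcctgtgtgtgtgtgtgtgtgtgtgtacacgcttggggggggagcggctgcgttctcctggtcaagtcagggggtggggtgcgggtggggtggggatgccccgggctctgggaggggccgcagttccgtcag
Wnt11: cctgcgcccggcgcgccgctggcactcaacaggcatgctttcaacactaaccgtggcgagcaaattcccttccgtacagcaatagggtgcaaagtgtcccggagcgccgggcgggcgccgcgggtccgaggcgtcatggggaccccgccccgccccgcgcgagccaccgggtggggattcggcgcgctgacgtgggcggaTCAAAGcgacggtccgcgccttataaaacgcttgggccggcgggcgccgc
Axin2: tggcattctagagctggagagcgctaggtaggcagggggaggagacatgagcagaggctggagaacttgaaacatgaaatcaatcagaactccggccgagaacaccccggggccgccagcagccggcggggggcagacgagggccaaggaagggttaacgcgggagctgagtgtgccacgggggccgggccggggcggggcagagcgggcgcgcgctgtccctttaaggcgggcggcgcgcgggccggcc
The steroid receptor core in the Wnt1 run lies 217 bases before the start, and the Tcf and Lef core in the Wnt11 run lies 50 bases before it. The run before the second Wnt11 start, chr7:98838595-98838844 (+), held neither core. Axin2 and Wnt10b held neither in this window. Of 37 upstream runs, which covered 29 of the 43 members, 6 (16.2%) held CTTTGA on either strand (Dkk1, Frzb, Fzd1, Lef1, Wnt11 and Wnt5b), against 13.8% of all 32851 annotated upstream runs. The steroid receptor core was in 2 of the 37 (5.41%, Wnt1 and Wnt5b), against 5.84% of all. On GRCm38 Wnt10b spans chr15:98770712-98778150 on the minus strand and Wnt1 spans chr15:98789857-98793837 on the plus strand, with 11706 bases between them.

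Across the 13 libraries the median level was at least 1 CPM for 31 members, at least 10 CPM for 21 and at least 100 CPM for 3. The 3 were the secreted Frizzled-related proteins Sfrp2 (157 to 746 CPM, median 366), Sfrp4 (39.7 to 356 CPM, median 193) and Sfrp1 (65.6 to 371 CPM, median 105). Each of them is a decoy that binds Wnt ligands. Reads are counted at the 3′ end, so a difference in level between genes was not tested. Each gene is compared below with itself, between libraries or between barcodes of 1 library.

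**Figure D1:**
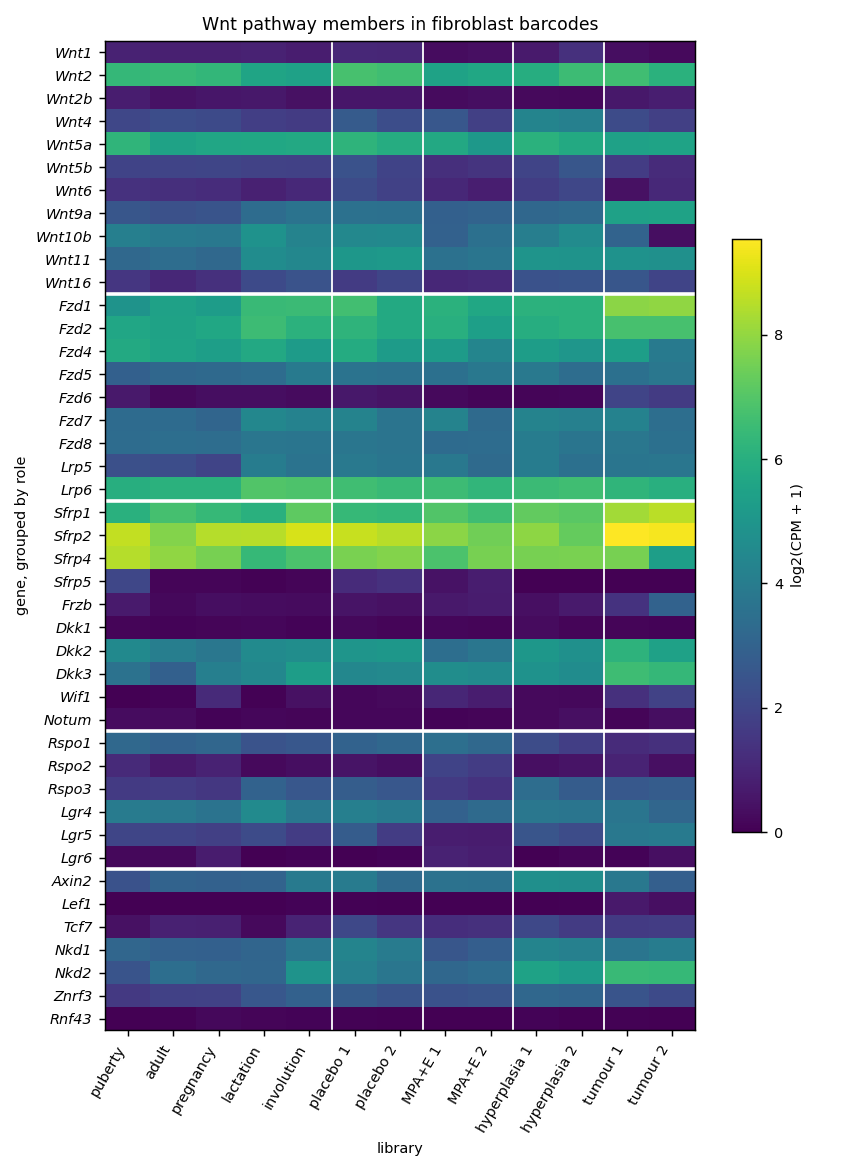
Level of the 43 members in the 13 libraries. Rows are genes grouped by role (ligands, receptors, secreted antagonists, R-spondins and Lgr receptors, feedback and nuclear genes, split by white lines), columns are libraries, and colour is log2(CPM + 1) over fibroblast barcodes. Sfrp1, Sfrp2 and Sfrp4 have a median of at least 100 CPM, and Wnt10b is at 0.262 CPM in tumour 2.

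MPA+E was compared with placebo to ask how a short rise of progestin and estrogen changes the fibroblasts. Among the ligands Wnt1, Wnt2, Wnt6 and Wnt11 fell, by 1.09 to 2.02 on the log2 scale, and the fitted change of all 11 ligands was below 0 (median -1.15). The antagonists Dkk2 and Sfrp2, the R-spondin Rspo3 and the feedback gene Nkd1 fell as well. Rspo2, Wif1 and Lgr6 rose. In all, 11 of the 40 members tested passed an adjusted p of 0.05 in edgeR's quasi-likelihood test over 15642 genes, 3 higher and 8 lower, against 4.33% of all genes tested (2.69% higher and 1.64% lower). The median log2 fold change was -0.61 over the 40 members, of which 32 lay below 0, and 0.01 over all genes. The 2 groups did not overlap for 30 of the 40 members, against 43.6% of all genes tested. Notum, Lef1 and Rnf43 had too few UMIs to be tested.

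Among the ligands that fell, Wnt2, known from fetal lung and mammary stroma, was at 107 and 98.4 CPM in placebo 1 and 2 and at 44.0 and 51.1 CPM in MPA+E 1 and 2 (log2 fold change -1.09 ± 0.13 SE, edgeR adjusted p = 0.0199). Wnt11, which mostly acts without β-catenin, was at 32.2 and 34.0 CPM under placebo and 10.7 and 12.0 CPM under MPA+E (-1.53 ± 0.14, adjusted p = 0.0101). The 2 groups did not overlap for either ligand, and the 2 libraries of a group were close to each other. Wnt6 was at 3.56 and 2.62 CPM against 1.09 and 0.724 CPM (-1.75 ± 0.26, adjusted p = 0.0326). Wnt1, a classical β-catenin ligand, was low throughout, at 1.11 and 1.05 CPM against 0.230 and 0.296 CPM (-2.02 ± 0.29, adjusted p = 0.0304). These wild-type mice carry no transgene, so the Wnt1 reads here are of the endogenous gene.

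Dkk2, a Dickkopf antagonist of the Lrp co-receptors, was at 30.2 and 32.5 CPM under placebo and 9.93 and 12.4 CPM under MPA+E (log2 fold change -1.47 ± 0.18 SE, edgeR adjusted p = 0.0198). Sfrp2 was at 430 and 369 CPM against 238 and 178 CPM (-0.93 ± 0.14, adjusted p = 0.036). Nkd1, a feedback inhibitor that binds Dishevelled, was at 18.9 and 14.5 CPM against 4.91 and 6.19 CPM (-1.57 ± 0.19, adjusted p = 0.0196). The groups did not overlap for these 3 inhibitors of the pathway, and the MPA+E libraries were the lower ones each time.

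The R-spondins moved in opposite directions. Rspo3 was at 6.06 and 5.09 CPM under placebo and at 2.05 and 1.62 CPM under MPA+E (log2 fold change -1.59 ± 0.16 SE, edgeR adjusted p = 0.0134). Rspo2 was at 0.403 and 0.277 CPM under placebo and at 2.75 and 2.27 CPM under MPA+E (2.89 ± 0.25, adjusted p = 0.00987). Rspo1, the third R-spondin among the members, was not among the calls. Lgr6, an R-spondin receptor, rose from 0.0144 and 0.0555 CPM to 0.908 and 0.724 CPM (4.47 ± 0.53, adjusted p = 0.0192). Its call rests on 5 UMIs in the 2 placebo libraries and 145 in the 2 MPA+E libraries, a ratio of 23.0 (95% interval of the counts 9.65 to 72.0). Wif1, which binds Wnt ligands, was at 0.115 and 0.180 CPM against 1.02 and 0.680 CPM (2.51 ± 0.40, adjusted p = 0.0392). Lgr6 and Wif1 were no longer called when barcodes with UMIs of other cell types were kept (2.55, adjusted p = 0.213, and 1.75, adjusted p = 0.223). Both genes were present in epithelial barcodes, which were analysed in libraries with at least 30 of them, at 57.2 and 122 CPM in placebo 2, 13.3 and 45.1 CPM in MPA+E 1 and 36.7 and 110 CPM in MPA+E 2, while the summed epithelial markers of the fibroblast barcodes were at 0.130 to 1.51 CPM under placebo and 0.207 to 0.548 CPM under MPA+E. The part of epithelial RNA in these results was not tested. No UMI of Rspo2 was seen in the epithelial barcodes of any library.

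**Figure D2:**
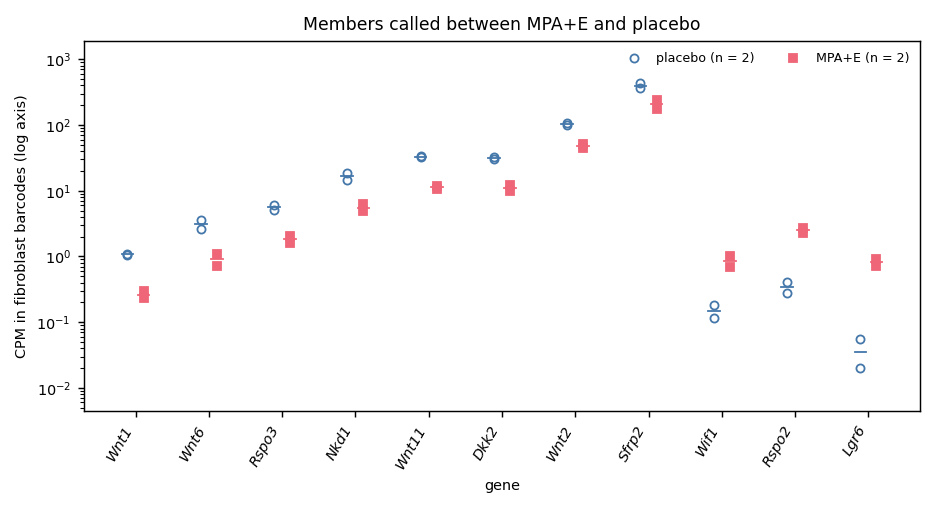
The 11 members called between MPA+E and placebo. Points are the CPM of each library on a log axis (open circles placebo, squares MPA+E, 2 libraries each), short lines are group means, and values under 0.02 CPM are drawn at 0.02. The groups do not overlap for any of the 11, with Rspo2, Wif1 and Lgr6 higher under MPA+E.

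The next 10 members by size of change did not pass the test. Lgr5, a stem cell marker and R-spondin receptor, was at 5.93 and 2.26 CPM against 0.689 and 0.636 CPM (log2 fold change -2.59, edgeR adjusted p = 0.0548). Wnt10b, a ligand known to hold back adipocyte formation, was at 21.0 and 22.3 CPM against 6.88 and 10.5 CPM (-1.30, adjusted p = 0.0646). Placebo 1 held more than 2 times the Lgr5 level of placebo 2. The receptor Lgr4 was at 16.6 and 14.0 CPM against 6.86 and 8.83 CPM (-0.94, adjusted p = 0.0612). Wnt5b was at 4.30 and 2.83 CPM against 1.41 and 1.71 CPM (-1.16, adjusted p = 0.0844). The receptor Fzd6 was at 0.533 and 0.416 CPM against 0.184 and 0.0987 CPM (-1.73, adjusted p = 0.0899). These 3 genes had lower fitted levels under MPA+E. Wnt16 was at 2.13 and 2.97 CPM against 1.08 and 1.21 CPM (-1.15, adjusted p = 0.104). Sfrp5 was at 1.25 and 1.59 CPM against 0.379 and 0.713 CPM (-1.36, adjusted p = 0.162). Wnt2b was at 0.475 and 0.485 CPM against 0.218 and 0.263 CPM (-0.98, adjusted p = 0.185). Of the 29 tested members that were not called, the groups did not overlap for 19, beside the 43.6% of all genes given above. Tcf7, a nuclear partner of β-catenin, was at 3.18 and 1.82 CPM against 1.39 and 1.52 CPM (-0.75, adjusted p = 0.262). Fzd4 was at 57.7 and 36.9 CPM against 36.4 and 19.2 CPM (-0.76, adjusted p = 0.296). No receptor of the Frizzled and Lrp group was called (0 of 9 tested). Among 52 other Wnt pathway genes, 40 were tested and only the glypicans Gpc3 (-0.74) and Gpc6 (-1.17), which bind Wnt and other ligands at the cell surface, were called, both lower, a share near the 4.33% of all genes.

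The hormone calls rested on both placebo libraries. Without placebo 1, or without placebo 2, most calls over all genes were lost, those of the 11 members among them. Without MPA+E 1 or MPA+E 2 most of the 11 were kept. Each such fit leaves 1 library in a group. The 11 members kept their direction in every one of these fits.

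To describe the members within the fibroblasts, barcodes were assigned to 6 marker classes by genes that are not members: progenitor (Pi16, Dpp4, Sema3c, Anxa3, Cd55), preadipocyte (Fabp4, Cd36, Lpl, Pparg), ECM remodelling (Crabp1, Stra6, Pla2g7, Lox), adipogenesis-regulatory (Gdf10, Clec11a, Fmo2), lobular (Bmp5, Thbs4, Cilp, Fndc1) and myofibroblastic (Acta2, Lrrc15, Tnc, Tagln). A barcode joined the class of its highest score where that was at least 2 times the mean over all libraries. Such classes are ranges of a score and not cell types. Between 11.2% and 69.6% of a class's barcodes in a wild-type library lay close to the limit or to a second class, and 25.3% to 55.0% of the barcodes of a wild-type library were in no class. The myofibroblastic class held only 11 to 305 barcodes in these libraries.

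The progenitor class was high in the ligands Wnt1, Wnt2, Wnt5b, Wnt9a, Wnt10b and Wnt11 and low in Wnt6. It was low in the antagonists Sfrp1, Frzb and Dkk3 and high in Sfrp4, and low in the receptors Fzd1, Fzd4, Fzd5, Fzd7, Lrp5 and Lrp6 and high in Fzd8. Rspo3 and Lgr4 were high in it, and Rspo1, Lgr5 and the feedback and nuclear genes Nkd1, Nkd2, Znrf3 and Tcf7 were low. Over the 9 wild-type libraries (5 stages, placebo and MPA+E) 10 of 35 members tested were called higher in it than in the other fibroblast barcodes of the same library and 16 lower, against 27.9% higher and 26.5% lower of all 13832 genes. The share of members called higher (28.6%) was thus near that of all genes, and the share called lower was 45.7%. The test was an exact two-sided sign-flip permutation test of the log2 ratio of CPM + 1 over libraries, adjusted over all genes and classes. Wnt10b was at 33.4 to 87.5 CPM in the class (median 46.7) and at 3.30 to 7.85 CPM in the rest (median 4.85), a mean log2 ratio of 3.05 ± 0.34 (SD, n = 9, exact permutation p = 0.00391, adjusted p = 0.0171). It was higher in 9 of 9 libraries, and the 2 ranges did not overlap. A p of 0.00391 is the smallest that 9 libraries can give, and every ratio named in this and the next paragraph has it unless another is stated.

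Sfrp1 was at 12.8 to 29.5 CPM in the progenitor class (median 20.9) and at 77.8 to 167 CPM in the rest (median 111), a mean log2 ratio of -2.38 ± 0.50. Dkk3, a divergent Dickkopf protein, was at 1.79 to 8.28 CPM (median 4.42) against 8.48 to 44.7 CPM (median 26.3), a ratio of -2.10 ± 0.55. Both antagonists were lower in the class in 9 of 9 libraries, and the ranges of class and rest did not overlap. Rspo1 was at 0.704 to 2.02 CPM (median 1.30) against 5.54 to 11.4 CPM (median 9.80), a ratio of -2.10 ± 0.33. The feedback genes Nkd2 and Nkd1 were at a median of 2.54 CPM each against 11.0 and 8.90 CPM, ratios of -2.0 ± 0.60 and -1.82 ± 0.45. Like the antagonists, these 3 genes were lower in the class in each of the 9 libraries. The other members called higher, chosen for mention after their values were seen, were Rspo3 (mean log2 ratio 1.51), Wnt2 (1.43), Wnt1 (1.43), Wnt5b (1.38), Wnt11 (1.15), Lgr4 (0.92), Sfrp4 (0.66), Wnt9a (0.64) and Fzd8 (0.40). Wnt1, the neighbour of Wnt10b in the genome, had a median of 2.43 CPM in the class and 0.188 CPM in the rest.

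In the other classes Wnt10b was low, at a median of 1.50 CPM in the preadipocyte class (mean log2 ratio -2.95 ± 0.48), 1.61 CPM in the ECM remodelling class (-2.92 ± 0.79) and 2.43 CPM in the adipogenesis-regulatory class (-2.35 ± 0.50), against 16.3 to 18.1 CPM in the rest. The rest of each of these classes contains the progenitor class. The preadipocyte class was also low in Sfrp4, at 9.54 to 68.7 CPM (median 28.6) against 101 to 393 CPM (median 223), a ratio of -2.92 ± 0.47. The ECM remodelling class was high in feedback and nuclear genes. Nkd2 was at 14.8 to 75.9 CPM in it (median 46.9) and at 4.48 to 17.4 CPM in the rest (median 7.80), a ratio of 2.07 ± 0.33. With a class score of at least 3 this call was lost (1.58, exact permutation test, adjusted p = 0.0881). Tcf7 had a median of 7.15 CPM against 0.718 CPM (1.83 ± 0.88), and its ranges overlapped across libraries although the class was higher in 9 of 9. Dkk3 was high in the ECM remodelling class (38.5 to 80.4 CPM against 6.20 to 29.2 CPM, 1.79 ± 0.30) and in the adipogenesis-regulatory class (26.5 to 68.2 CPM against 5.03 to 36.0 CPM, 1.80 ± 0.65). Rspo1 was high in the adipogenesis-regulatory class, at a median of 20.7 CPM against 5.36 CPM (1.84 ± 0.72). All of these directions were seen in each of the 9 libraries.

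Members were called as follows, beside the share of all 13832 genes. In the preadipocyte class 5 of 35 were higher (17.0% of all genes) and 12 lower (20.9%), in the ECM remodelling class 15 higher (12.6%) and 8 lower (17.3%), and in the adipogenesis-regulatory class 9 higher (14.4%) and 9 lower (26.5%). The lobular class had 6 higher (10.0%) and 11 lower (23.0%), and the myofibroblastic class 3 higher (7.56%) and 2 lower (9.39%). The members' share of higher calls was near that of all genes in the preadipocyte (14.3%) and myofibroblastic (8.57%) classes, as was their share of lower calls in the adipogenesis-regulatory class (25.7%). With a class score of at least 3 the members called higher numbered 9 in the ECM remodelling class, 3 in the lobular class and 1 in the myofibroblastic class. These were 25.7%, 8.57% and 2.86% of the 35 members, beside 1285, 1394 and 800 of the 13832 genes.

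**Figure D3:**
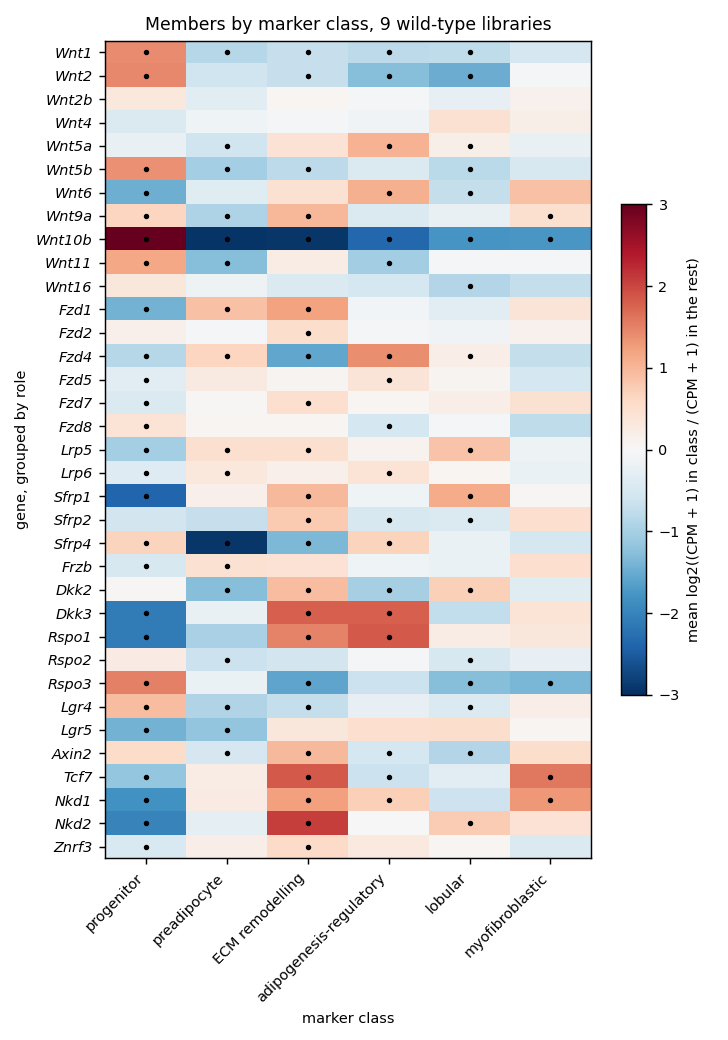
Mean log2 ratio of CPM + 1 in a marker class to that in the other fibroblast barcodes of the same library, over 9 wild-type libraries, for the 35 members tested (rows) and 6 classes (columns). Red is higher in the class, blue lower, colours end at 3 and -3, and a dot marks an adjusted p under 0.05. Wnt10b is highest in the progenitor class (3.05) and lower in the other 5.

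The progenitor class made up 28.9% and 27.8% of fibroblast barcodes under placebo and 12.0% and 15.5% under MPA+E. Within the progenitor class alone 8 of 31 members tested were called between MPA+E and placebo, against 5.32% of all genes tested there, of which Rspo2, Rspo3, Nkd1, Wnt11 and Dkk2 were also called over all fibroblasts. Without the class 9 of 38 were called, against 3.48% of all genes, and 8 of them were among the 11. Rspo3 (log2 fold change -0.70, edgeR adjusted p = 0.2) and Wif1 (2.17, adjusted p = 0.0558) did not pass without the class, and Wnt1 had too few UMIs there to be tested. Rspo3 in the progenitor class was at 14.0 and 10.7 CPM under placebo and 4.25 and 2.96 CPM under MPA+E, and outside it at 2.40 and 2.67 CPM against 1.75 and 1.38 CPM. Wnt1 in the class was at 3.24 and 3.16 CPM against 0.965 and 1.27 CPM, and outside it at 0.126 and 0.139 CPM against 0.130 and 0.117 CPM. For Wnt1 the 2 groups overlapped outside the class and not within it. Wnt2 was at 151 and 152 CPM against 72.2 and 96.9 CPM in the class and at 86.2 and 74.9 CPM against 40.2 and 42.6 CPM outside it. Within the class alone Wnt2 (log2 fold change -0.82, edgeR adjusted p = 0.0573), Wnt1 (-1.47, adjusted p = 0.051) and Sfrp2 (-1.99, adjusted p = 0.0593) did not pass the test, and Lgr6, Wif1 and Wnt6 had too few UMIs there to be tested.

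The difference between the hormone effects in the progenitor class and in the other fibroblasts was tested with an interaction term. It passed for Wnt5a and Dkk3, 2 of 39 members tested, against 2.09% of all 14743 genes. Wnt5a, the best known ligand that acts without β-catenin, was at 73.5 and 62.1 CPM under placebo and 27.2 and 18.7 CPM under MPA+E in the progenitor class, and at 72.1 and 58.8 CPM against 56.9 and 35.8 CPM in the rest (difference of log2 fold changes -1.08 ± 0.09 SE, edgeR adjusted p = 0.00172). Dkk3 was at 7.02 and 8.28 CPM against 4.25 and 2.67 CPM in the class, and at 26.5 and 26.9 CPM against 27.5 and 26.3 CPM in the rest (-1.22 ± 0.20, adjusted p = 0.0267). In the progenitor class the 2 groups did not overlap for either gene, and outside it the Dkk3 values of the groups overlapped. With a class score of at least 3 the Wnt5a difference was -0.68 (edgeR adjusted p = 0.0102), and the progenitor barcodes close to the limit or to a second class were 42.3% and 43.3% of the class in the MPA+E libraries, 19.1% and 24.1% of it in the placebo libraries. The Dkk3 difference was -1.09 without placebo 2 and -0.90 without MPA+E 2, and its call was lost in both of these fits. The next members by size did not pass: Tcf7 (-4.22), Sfrp5 (-3.41), Wnt6 (2.86), Lgr6 (-2.71), Wif1 (1.67), Wnt1 (-1.43), Sfrp2 (-1.29), Rspo3 (-1.11), Wnt5b (-1.04) and Wnt2b (-0.98), with adjusted p of 0.0906 or more.

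The 5 stages had 1 library each and no test was possible, so intervals are exact 95% Poisson intervals that cover counting error only. Of 25 members with at least 5 CPM at their highest stage, 16 differed at least 2 times between their highest and lowest stage, against 20.2% of the 10189 genes at that level. Involution was highest for 9 of the 16, lactation for 6 and puberty for 1. No member of the 16 was highest in the adult or in pregnancy. The highest stage was not counted over all genes, so it is not known whether these counts are particular to the members.

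Among the ligands Wnt9a was at 4.95, 4.10, 4.61, 9.46 and 11.4 CPM at puberty, adult, pregnancy, lactation and involution, a ratio of involution to adult of 2.78 (2.44 to 3.18). Wnt11 was at 8.41, 9.75, 8.40, 23.9 and 20.4 CPM at these stages, 2.85 times higher in lactation than in pregnancy (2.55 to 3.19). Wnt10b was at 16.2, 14.1, 13.3, 27.9 and 18.3 CPM, with a ratio of 2.10 (1.91 to 2.30) between the same stages. All 3 ligands were higher in lactation and involution than at the 3 earlier stages. Wnt2 ran the other way without reaching the limit, with 80.9, 85.9 and 79.4 CPM at the 3 earlier stages, 46.4 CPM in lactation and 43.3 CPM in involution. Wnt1 was nearly flat, between 0.713 and 0.882 CPM. The 2 placebo libraries were of the same age, strain and sort as the adult library, apart from the implanted pellet. They were at 10.4 to 10.9 CPM for Wnt9a, 32.2 to 34.0 CPM for Wnt11 and 21.0 to 22.3 CPM for Wnt10b, above the adult library. Differences of this size thus occurred without a change of stage, and the intervals do not cover them.

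The receptors among the 16 were highest in lactation or involution. Fzd1 was at 28.8, 43.1, 37.3, 88.3 and 90.0 CPM over the 5 stages, a ratio of involution to puberty of 3.13 (2.95 to 3.32). Lrp5 was at 4.00, 3.79, 2.84, 15 and 11.4 CPM, 5.30 times higher in lactation than in pregnancy (4.42 to 6.39). Fzd7 was at 9.07, 9.11, 7.72, 20.6 and 18.0 CPM (ratio 2.67, 2.38 to 3.01). For these 3 receptors the lowest value of the last 2 stages was above the highest of the first 3. In placebo Fzd1 was at 55.2 to 100 CPM, Lrp5 at 12.0 to 13.6 CPM and Fzd7 at 11.8 to 18.4 CPM, also above the first 3 stages. Fzd2 reached 92.2 CPM in lactation against 44.6 CPM in the adult (2.07, 1.98 to 2.16), and Fzd5 14.0 CPM in involution against 6.63 CPM at puberty (2.12, 1.87 to 2.41).

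Among antagonists Dkk3 was at 11.2, 6.61, 16.6, 20.6 and 38.5 CPM over the 5 stages, a ratio of involution to adult of 5.83 (5.29 to 6.43). Sfrp4 had the reverse pattern with 356, 245, 194, 82.8 and 113 CPM, 4.30 times higher at puberty than in lactation (4.17 to 4.44). Sfrp1 was at 144 CPM in involution against 65.6 CPM in lactation (2.20, 2.12 to 2.28), and Sfrp2 at 503 CPM against 217 CPM in the adult (2.32, 2.28 to 2.36). Sfrp4 was thus the one member of the 16 with its highest level at puberty. In placebo Dkk3 was at 20.4 to 21.3 CPM, above the adult library, and Sfrp4 at 197 to 220 CPM, below it. The feedback genes among the 16 were highest in involution, where the ECM remodelling class, which was higher in Nkd2, Axin2 and Znrf3, made up 17.7% of fibroblast barcodes against 9.74% in lactation, 2.94% in pregnancy, 1.77% in the adult and 0.646% at puberty. Nkd2 was at 4.56, 9.86, 8.44, 7.90 and 28.7 CPM (6.30 between involution and puberty, 5.48 to 7.26). Axin2, a standard reporter of β-catenin activity, was at 4.23, 7.12, 6.75, 7.13 and 13.9 CPM (3.28, 2.82 to 3.83), and Znrf3 at 1.99, 2.59, 2.74, 4.97 and 6.89 CPM (3.46, 2.78 to 4.35). All 3 feedback genes were lowest at puberty. In placebo Nkd2 was at 12.5 to 16.8 CPM, Axin2 at 8.85 to 14.7 CPM and Znrf3 at 4.62 to 5.86 CPM, above the adult library. Without the barcodes of the ECM remodelling class these 3 genes were still highest in involution and lowest at puberty among the stages. The ratios were then 3.88 (3.35 to 4.51) for Nkd2, 2.82 (2.41 to 3.32) for Axin2 and 3.05 (2.43 to 3.87) for Znrf3. Other members changed place without these barcodes. Sfrp2 was then highest at puberty (404 CPM) in place of involution, with a ratio of 1.87 to the adult (1.83 to 1.91). Fzd1 was highest in lactation (82.3 CPM) in place of involution, and 2.87 times the puberty level (2.70 to 3.05). Sfrp1 (1.88, 1.80 to 1.96) and Fzd2 (1.94, 1.86 to 2.03) kept their highest stage and came under a ratio of 2, and Lgr4 came above it (2.10, 1.90 to 2.33). Rspo3 was at 6.92 CPM in lactation against 1.91 CPM in pregnancy (3.61, 2.88 to 4.58). In placebo it was at 5.09 to 6.06 CPM, above the adult library (2.26 CPM).

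Of members under 5 CPM, Sfrp5 was at 3.10 CPM at puberty and at most 0.108 CPM at the other 4 stages. In placebo it was at 1.25 to 1.59 CPM, above the adult library. Wif1 (1.18 CPM) and Lgr6 (0.673 CPM) were highest in pregnancy, the library with 33.4 CPM of epithelial markers, and in the epithelial barcodes of that library they were at 89.7 and 43.8 CPM. The part of these cells in the result was not tested. Without the pregnancy library 15 members differed at least 2 times (18.5% of all genes), and without the ECM remodelling class 14 did (19.2%).

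**Figure D4:**
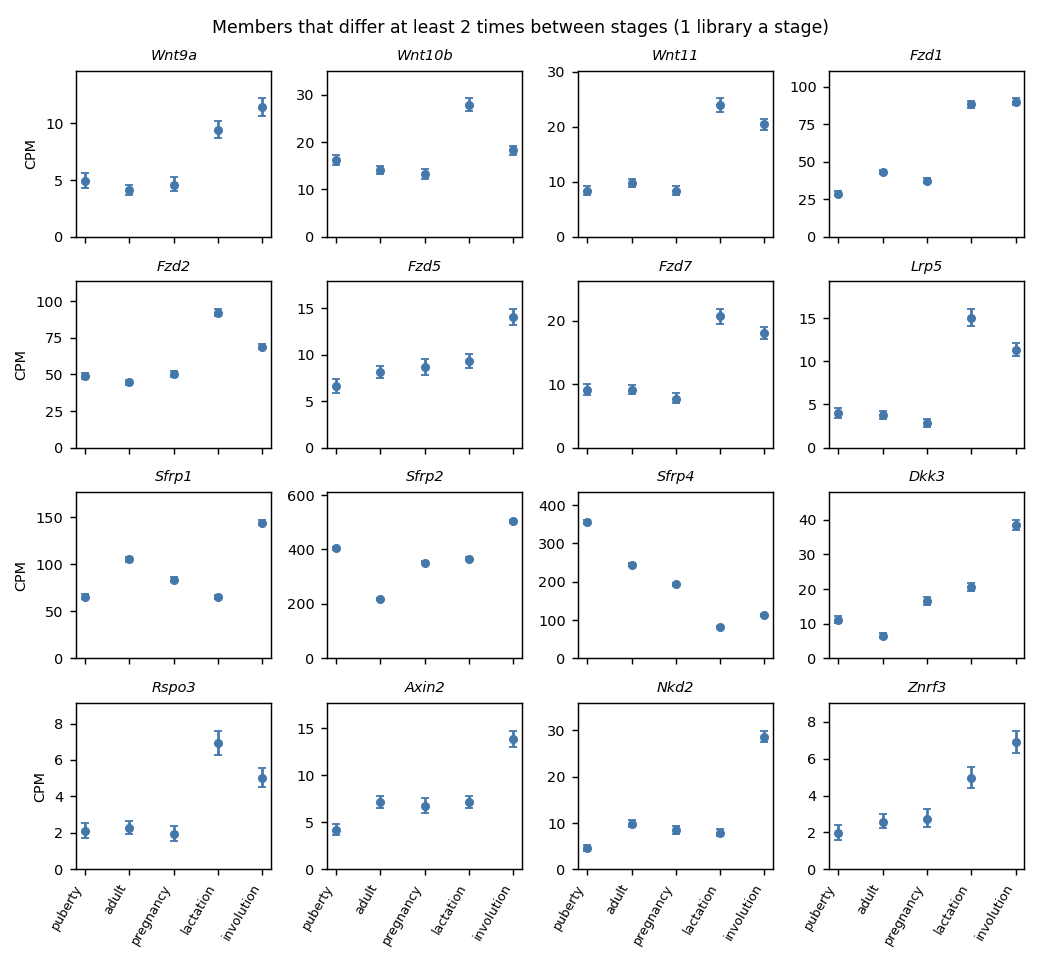
CPM of the 16 members that differed at least 2 times between stages, 1 library a stage, each panel with its own axis from 0. Bars are exact Poisson 95% intervals of the counts. Lrp5 in lactation (15 CPM) and Nkd2 in involution (28.7 CPM) stand above the 3 earlier stages, and Sfrp4 is highest at puberty (356 CPM).

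Hyperplasia and tumour were compared with each other, and hyperplasia with the 2 normal libraries of puberty and adult, in a single limma-voom fit of 6 libraries. The 2 contrasts share the hyperplasia libraries, so each contrast's values are given for its own sake. Strain, sort and age differ between normal and hyperplasia along with the lesion and cannot be told apart from it.

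Of the feedback and nuclear genes Axin2, Nkd1, Nkd2, Znrf3 and Tcf7 were called higher in hyperplasia than in normal fibroblasts, 5 of 6 tested in that role, Lef1 being the other. The feedback gene Notum, counted with the antagonists, was not called (log2 fold change 0.011, limma-voom adjusted p = 0.991). With them rose the ligands Wnt4, Wnt9a, Wnt11 and Wnt16, the receptors Fzd1 and Lrp5, Dkk3 and Rspo3, while Rspo1 fell. That made 14 of 40 members, 13 higher and 1 lower, against 14.0% of 16302 genes (7.70% higher and 6.29% lower). The median log2 fold change was 0.53 over the members and -0.01 over all genes. The groups did not overlap for 31 of the 40, against 70.6% of all genes. Sfrp5, Dkk1 and Rnf43 could not be tested in this fit.

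The ECM remodelling class made up 25.7% and 25.4% of fibroblast barcodes in hyperplasia 1 and 2, against 0.646% at puberty and 1.77% in the adult. In the wild-type libraries Nkd1, Nkd2, Axin2, Znrf3, Tcf7, Dkk3, Fzd1, Lrp5 and Wnt9a were higher in that class. Rspo1, which fell in hyperplasia, was higher in it as well (mean log2 ratio 1.48). Rspo3, which rose, was lower in it (-1.59), and Wnt4, Wnt11 and Wnt16 were called in neither direction. Without the barcodes of the ECM remodelling class 7 of 39 members were called, against 5.54% of all genes. Axin2 (log2 fold change 1.70, limma-voom adjusted p = 0.051), Nkd1 (0.92, adjusted p = 0.0535), Tcf7 (1.43, adjusted p = 0.0918), Dkk3 (1.13, adjusted p = 0.0712), Fzd1 (0.60, adjusted p = 0.0962), Wnt9a (0.70, adjusted p = 0.0818) and Wnt16 (1.09, adjusted p = 0.162) were lost. Nkd2, Znrf3, Wnt4, Wnt11, Lrp5, Rspo3 and Rspo1 were still called. Markers of other cell types differed as well. The muscle marker sum was 7.22 and 4.24 CPM at puberty and in the adult and 0.726 to 1.28 CPM in hyperplasia, the Schwann sum 48.0 and 14.8 CPM against 14.1 to 20.5 CPM, and the pericyte sum 4.60 and 2.42 CPM against 5.83 to 5.89 CPM, with Myog, Sox10 and Rgs5 at 0. The part of these markers in the results was not tested.

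Nkd2 was at 4.56 CPM at puberty and 9.86 CPM in the adult, and at 43.7 and 36.6 CPM in hyperplasia 1 and 2 (log2 fold change 2.47 ± 0.31 SE, limma-voom adjusted p = 0.0117). Axin2 was at 4.23 and 7.12 CPM against 25.8 and 24.5 CPM (2.11 ± 0.40, adjusted p = 0.0288). Nkd1 was at 7.86 and 6.73 CPM against 18.5 and 16.8 CPM (1.26 ± 0.19, adjusted p = 0.018). Each hyperplasia library was above both normal libraries for these 3 feedback genes. Znrf3, which removes Frizzled from the membrane, was at 1.99 and 2.59 CPM against 8.02 and 7.46 CPM (1.70 ± 0.26, adjusted p = 0.0183). Tcf7 was at 0.349 and 0.840 CPM against 3.20 and 2.14 CPM (2.11 ± 0.45, adjusted p = 0.035). Among the antagonists Dkk3 was at 11.2 and 6.61 CPM against 28.1 and 24.2 CPM (1.61 ± 0.28, adjusted p = 0.0247). Here too the groups did not overlap. The wild-type placebo libraries, outside this fit, overlapped hyperplasia for Nkd1 (14.5 to 18.9 CPM) and Tcf7 (1.82 to 3.18 CPM). They were below it for Nkd2 (12.5 to 16.8 CPM), Axin2 (8.85 to 14.7 CPM), Znrf3 (4.62 to 5.86 CPM) and Dkk3 (20.4 to 21.3 CPM).

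Wnt4 was at 3.04 and 3.78 CPM in the normal libraries and at 18.6 and 17.0 CPM in hyperplasia (log2 fold change 2.34 ± 0.23 SE, limma-voom adjusted p = 0.00747). Wnt11 was at 8.41 and 9.75 CPM against 29.5 and 28.9 CPM (1.64 ± 0.15, adjusted p = 0.00671). Wnt16 was at 1.87 and 1.10 CPM against 4.27 and 4.61 CPM (1.65 ± 0.42, adjusted p = 0.0493), and Wnt9a at 4.95 and 4.10 CPM against 8.04 and 8.84 CPM (0.89 ± 0.19, adjusted p = 0.0351). Both hyperplasia libraries were above both normal libraries for each of the 4 ligands. The Wnt16 call lay close to the threshold and was also lost with no filter on low counts (limma-voom adjusted p = 0.0528), with a mitochondrial limit of 5% (0.0524) and with barcodes of other cell types' UMIs kept (0.051). Lrp5 was at 4.00 and 3.79 CPM against 15 and 10.6 CPM (1.66 ± 0.24, adjusted p = 0.017), and Fzd1 at 28.8 and 43.1 CPM against 69.8 and 67.6 CPM (0.93 ± 0.19, adjusted p = 0.0338). Rspo3 was at 2.09 and 2.26 CPM against 9.58 and 5.79 CPM (1.71 ± 0.32, adjusted p = 0.0285), whereas Rspo1 was at 8.46 and 6.97 CPM against 3.68 and 2.43 CPM (-1.40 ± 0.26, adjusted p = 0.0285). The 2 R-spondins therefore differed from normal in opposite directions. Placebo overlapped hyperplasia for Lrp5 (12.0 to 13.6 CPM), Fzd1 (55.2 to 100 CPM) and Rspo3 (5.09 to 6.06 CPM), and was above it for Rspo1 (7.03 to 8.11 CPM). Placebo was also above hyperplasia for Wnt11 (32.2 to 34.0 CPM) and Wnt9a (10.4 to 10.9 CPM), which were called higher in hyperplasia than in normal. For Wnt4 and Wnt16 placebo was below hyperplasia.

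A further 10 members had the largest changes among those not called in this contrast. Fzd7 was at 9.07 and 9.11 CPM against 18.2 and 16.7 CPM (log2 fold change 0.90, limma-voom adjusted p = 0.0929). Sfrp1 was at 65.7 and 105 CPM against 151 and 136 CPM (0.76, adjusted p = 0.0721). Wnt6 was at 1.58 and 1.45 CPM against 2.35 and 3.11 CPM (0.83, adjusted p = 0.239). In these 3 the hyperplasia libraries were the higher ones. Wnt2b was at 0.718 and 0.393 CPM against 0.195 and 0.152 CPM (-1.57, adjusted p = 0.0886). Sfrp2 was at 405 and 217 CPM against 240 and 157 CPM (-0.65, adjusted p = 0.238), and Sfrp4 at 356 and 245 CPM against 191 and 194 CPM (-0.66, adjusted p = 0.54). The Sfrp2 values of the groups overlapped. The others were low in all 4 libraries. Fzd6 was at 0.554 and 0.190 CPM against 0.106 and 0.110 CPM, and Rspo2 at 1.21 and 0.555 CPM against 0.319 and 0.428 CPM. Wif1 was at 0 and 0.0542 CPM against 0.195 and 0.138 CPM, and Lgr6 at 0.144 and 0.149 CPM against 0 and 0.0828 CPM. Of the other Wnt pathway genes 41 were tested, and 7 were called higher and none lower, beside 7.70% and 6.29% of all genes. The calls depended on each of these libraries. Without puberty, hyperplasia 1 or hyperplasia 2 nearly all calls over all genes were lost, those of the 14 members among them. Without the adult library most calls were lost, over all genes and among the 14. Each such fit leaves 1 library in a group, and none of the 14 members changed direction in them.

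In tumours compared with hyperplasia the direction was mixed among the roles. Of the 8 secreted antagonists tested Sfrp1, Sfrp2, Dkk3 and Wif1 were called higher and none lower, with 2 fitted changes below 0. Of the 9 receptors Fzd1, Fzd2 and Fzd6 were called higher and none lower, with 5 fitted changes below 0 and a median log2 fold change of -0.035. The ligands Wnt9a and Wnt2b rose, and Wnt4, Wnt6 and Wnt1 fell. Lgr5, Nkd2 and Lef1 rose, and Axin2, Znrf3 and Rspo1 fell. That made 18 of 40 members, 12 higher and 6 lower, against 29.3% of 16302 genes (15.4% higher and 13.9% lower). The median log2 fold change was -0.15 over the members and -0.01 over all genes.

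Wnt9a was at 8.04 and 8.84 CPM in hyperplasia 1 and 2 and at 42.9 and 44.5 CPM in tumour 1 and 2 (log2 fold change 2.37 ± 0.16 SE, limma-voom adjusted p = 0.002). Wnt4 was at 18.6 and 17.0 CPM against 3.52 and 2.52 CPM (-2.56 ± 0.22, adjusted p = 0.0026). These ligands differed in opposite directions, with libraries of a group close together. Wnt2b was at 0.195 and 0.152 CPM against 0.546 and 0.729 CPM (1.83 ± 0.49, adjusted p = 0.0368), and Wnt6 at 2.35 and 3.11 CPM against 0.351 and 1.15 CPM (-2.12 ± 0.49, adjusted p = 0.0249). Wnt1 was at 0.602 and 1.48 CPM against 0.293 and 0.171 CPM (-2.09 ± 0.57, adjusted p = 0.0382). In the wild-type libraries Wnt1 was higher in the progenitor class. That class made up 15.9% and 21.7% of fibroblast barcodes in hyperplasia 1 and 2, 16.7% in tumour 1 and 0.283% in tumour 2. The part of these shares in the Wnt1 result was not tested. The Wnt1 reads of these mice may be of the transgene or of the endogenous gene. Their epithelial barcodes, 7 and 95 in hyperplasia 1 and 2 and 17 and 134 in tumour 1 and 2, held 1 UMI of Wnt1, in hyperplasia 2.

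Fzd1 was at 69.8 and 67.6 CPM in hyperplasia and at 237 and 247 CPM in tumours (log2 fold change 1.82 ± 0.20 SE, limma-voom adjusted p = 0.00506). Fzd2 was at 60.3 and 66.6 CPM against 108 and 108 CPM (0.77 ± 0.15, adjusted p = 0.017), and Fzd6 at 0.106 and 0.110 CPM against 2.93 and 2.13 CPM (4.44 ± 0.64, adjusted p = 0.00885). None of the 3 receptors overlapped between the groups. Sfrp2 was at 240 and 157 CPM against 746 and 676 CPM (1.87 ± 0.36, adjusted p = 0.0174), and Sfrp1 at 151 and 136 CPM against 297 and 371 CPM (1.21 ± 0.24, adjusted p = 0.0182). Dkk3 was at 28.1 and 24.2 CPM against 95.1 and 80.2 CPM (1.75 ± 0.26, adjusted p = 0.00951). Wif1 was at 0.195 and 0.138 CPM against 1.52 and 2.67 CPM (3.56 ± 0.62, adjusted p = 0.0139). The tumour libraries were the higher ones for all 4 antagonists. In epithelial barcodes Wif1 was at 377 CPM in hyperplasia 2 and 916 CPM in tumour 2, with epithelial marker sums of 0.531 to 1.04 CPM in the fibroblast barcodes of hyperplasia and 0.809 to 1.17 CPM in those of tumours, and the part of free epithelial RNA was not tested.

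Lgr5 was at 4.66 and 3.69 CPM in hyperplasia and at 13.3 and 14.2 CPM in tumours (log2 fold change 1.74 ± 0.18 SE, limma-voom adjusted p = 0.00442). Lef1, a nuclear partner of β-catenin, was at 0 and 0.0276 CPM against 0.575 and 0.319 CPM (4.65 ± 0.95, adjusted p = 0.0192), from 2 UMIs in hyperplasia and 87 in tumours, a ratio of 29.5 (95% interval of the counts 7.92 to 247). Nkd2 was at 43.7 and 36.6 CPM against 88.0 and 82.8 CPM (1.10 ± 0.28, adjusted p = 0.0321). These 3 genes were higher in both tumours, while other feedback genes were lower there. Axin2 was at 25.8 and 24.5 CPM against 13.2 and 6.47 CPM (-1.43 ± 0.35, adjusted p = 0.0293), and Znrf3 at 8.02 and 7.46 CPM against 4.59 and 3.41 CPM (-0.95 ± 0.22, adjusted p = 0.0241). Rspo1 was at 3.68 and 2.43 CPM against 1.26 and 1.53 CPM (-1.09 ± 0.31, adjusted p = 0.0435).

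**Figure D5:**
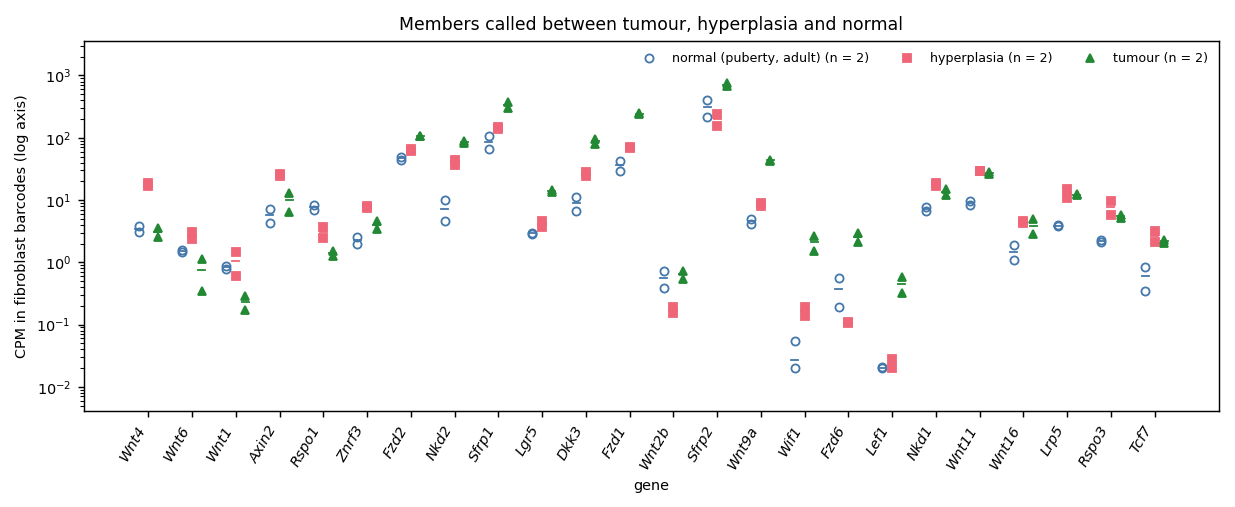
Members called between tumour and hyperplasia or between hyperplasia and normal. Points are the CPM of each library on a log axis (open circles normal, squares hyperplasia, triangles tumour, 2 libraries each), short lines are group means, and values under 0.02 CPM are drawn at 0.02. Wnt4 is highest in hyperplasia (18.6 and 17.0 CPM), and Wnt9a (42.9 and 44.5 CPM) and Fzd1 (237 and 247 CPM) in tumours.

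Among the 10 largest changes that were not called, several separated the tumours from each other. Wnt10b was at 15.8 and 23.2 CPM in hyperplasia, 7.24 CPM in tumour 1 and 0.262 CPM in tumour 2 (log2 fold change -3.70, limma-voom adjusted p = 0.0513). Sfrp4 was at 191 and 194 CPM against 193 and 39.7 CPM (-1.14, adjusted p = 0.238), and Fzd4 at 39.2 and 31.3 CPM against 39.8 and 14.2 CPM (-0.55, adjusted p = 0.384). In these 3 genes tumour 2 was the low library. It held 12 progenitor class barcodes (0.283% of its fibroblast barcodes) against 16.7% in tumour 1, and 58.5% myofibroblastic class barcodes against 20.8%. Of the 12, 66.7% lay close to the limit or to a second class. In the wild-type libraries the progenitor class was high in Wnt10b and Sfrp4 and low in Fzd4 (mean log2 ratio -0.86). The part of the class shares in these levels was not tested. Frzb was at 0.319 and 0.608 CPM against 1.61 and 6.97 CPM (2.84, adjusted p = 0.0809), and Dkk2 at 32.2 and 26.8 CPM against 71.4 and 42.5 CPM (0.91, adjusted p = 0.0663). Wnt5b was at 2.89 and 4.94 CPM against 2.26 and 1.23 CPM (-1.19, adjusted p = 0.0596), and Wnt5a at 66.8 and 54.6 CPM against 42.9 and 45.8 CPM (-0.44, adjusted p = 0.258). The groups did not overlap in these 4 genes, as for 26 of the 40 members tested and 72.2% of all genes. Lgr6, Rspo2 and Notum were under 1 CPM in all 4 libraries: Lgr6 was at 0 and 0.0828 CPM against 0.078 and 0.319 CPM (2.42, adjusted p = 0.161), Rspo2 at 0.319 and 0.428 CPM against 0.946 and 0.319 CPM (0.57, adjusted p = 0.556) and Notum at 0.177 and 0.304 CPM against 0.107 and 0.262 CPM (-0.51, adjusted p = 0.508).

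Of the other Wnt pathway genes 41 were tested between tumour and hyperplasia. Of these 7 were called higher, led by Cthrc1 (log2 fold change 4.29), a secreted protein that binds Wnt and Frizzled, and Ptk7 (2.07), a Wnt co-receptor, and 5 were called lower, led by the planar polarity gene Celsr2 (-2.23). These 12 of 41 were called at the same share as all genes (29.3%). The myofibroblastic class made up 20.8% of the fibroblast barcodes in tumour 1 and 58.5% in tumour 2, against 4.53% and 2.14% in hyperplasia. Without the myofibroblastic class 16 of 39 members were called, against 22.2% of all genes, and 14 of them were among the 18. Nkd2 (log2 fold change 0.96, limma-voom adjusted p = 0.0725), Rspo1 (-0.94, adjusted p = 0.163), Wnt2b (1.68, adjusted p = 0.0505) and Wnt1 (-1.50, adjusted p = 0.0912) did not pass, with the same direction as over all fibroblasts, and Dkk2 and Wnt11 passed. The ECM remodelling class made up 20.6% and 12.4% of the tumours against 25.7% and 25.4% of hyperplasia, and without it 14 of 39 members were called, against 25.4% of all genes. Rspo1 (-1.28, limma-voom adjusted p = 0.0599) and Wnt2b (1.99, adjusted p = 0.0622) then had larger changes than over all fibroblasts but did not pass, and Axin2 (-1.06, adjusted p = 0.0602) and Wnt6 (-1.61, adjusted p = 0.0859) had smaller ones and did not pass. Nkd2 (0.83, limma-voom adjusted p = 0.0635) and Wnt1 (-1.57, adjusted p = 0.0851) were also lost with a fibroblast limit of 100 UMIs per 10000, and Rspo1 with no filter on low counts (-1.06, adjusted p = 0.0509). Pericyte marker sums moved with the tumours (5.83 and 5.89 CPM in hyperplasia, 9.48 and 18.0 CPM in tumours) with Rgs5 at 0, and Schwann marker sums were at 14.1 to 20.5 CPM in hyperplasia and 1.17 to 8.44 CPM in tumours with Sox10 at 0. Their part in the results was not tested. Most of the 18 calls, and most calls over all genes, were lost without hyperplasia 1 or without hyperplasia 2. Most of the 18 were kept without tumour 1 or tumour 2. Each such fit leaves 1 library in a group, and none of the 18 members changed direction in them.

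Within the tumours the myofibroblastic class was set against the other fibroblast barcodes of the same library. The values are given and no test was run. Of 24 members with at least 5 CPM, Lgr5 was at least 2 times higher in both tumours, against 0.444% of 9462 genes, and Fzd4, Sfrp4 and Wnt16 were at least 2 times lower in both, against 1.62%. Wnt16 reached 5 CPM only outside the class, so that limit had a part in its place among the lower genes. Lgr5 was at 29.4 CPM in the class and 7.78 CPM in the rest of tumour 1 (ratio 3.77, 95% interval of the counts 3.39 to 4.21) and at 17.9 against 7.05 CPM in tumour 2 (2.55, 2.19 to 2.97). Sfrp4 was at 55.3 against 240 CPM and at 23.3 against 71.6 CPM. Fzd4 was at 9.51 against 50.1 CPM and at 8.59 against 25.2 CPM, and Wnt16 at 2.26 against 5.81 CPM and at 1.68 against 5.14 CPM. Lgr5 was thus the high member and the other 3 the low ones in both libraries. With a class limit of 3 in place of 2, Wnt16 no longer passed.

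The 2 tumours differed in other members of the class. Wnt9a was at 72.0 against 33.0 CPM in tumour 1 (ratio 2.18, 2.05 to 2.32) and at 48.6 against 36.5 CPM in tumour 2 (1.33, 1.24 to 1.43). Nkd2 was at 173 against 58.9 CPM in tumour 1 and 77.0 against 93.8 CPM in tumour 2, Dkk3 at 172 against 68.8 CPM and 77.3 against 85.7 CPM, and Fzd1 at 397 against 183 CPM and 240 against 261 CPM. These 3 genes were higher in the class of tumour 1 and lower in that of tumour 2. Dkk2 also differed in direction, from 106 against 59.5 CPM to 33.6 against 59.8 CPM. The rest of each tumour contains the lobular class (9.58% and 7.88% of the fibroblast barcodes of tumour 1 and 2), in which these genes were high in both tumours. Of its barcodes 38.5% and 30.5% lay close to the limit or to a second class. The paper reports no Bmp5-positive lobular-like fibroblasts within tumours, and Wnt9a only in myofibroblastic ones. The class name thus stands for a score here, and what these barcodes are was not tested. Wnt9a was at 90.3 CPM in the lobular class against 38.0 CPM outside it in tumour 1 and at 99.98 against 41.2 CPM in tumour 2, and Nkd2 at 170.4 against 79.5 CPM and 173 against 77.5 CPM. Dkk3 was at 159 against 88.5 CPM and 180.2 against 74.3 CPM, Dkk2 at 118 against 66.6 CPM and 139 against 36.9 CPM, and Fzd1 at 363 against 224 CPM and 350.3 against 241 CPM. Wnt9a, Nkd2, Dkk3, Fzd1 and Dkk2 were chosen for mention after their values were seen.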

How the data were processed

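The authors deposited UMI counts per gene and barcode for each of 13 libraries (10x Chromium 3′), made with Cell Ranger 6.1.2, with mm10 as the build per the submitters' processing notes. The deposited counts are not normalized. From them barcodes were chosen as fibroblasts by the limits given above, counts were summed per library, and CPM was computed. No doublet caller was run. Doublets with another cell type were limited by the rule on other cell types' genes, which removed 1.72% to 5.12% of a library's barcodes that had passed the other limits, and fibroblast doublets only by the upper gene limit. Libraries held 56551189 to 112550204 UMIs.

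The members, gene lists and comparisons were chosen with earlier results of these data known. MPA+E was tested with edgeR 4.0.16 (quasi-likelihood, TMM, filterByExpr), lesions with limma 3.58.1 (voom), both in R 4.3.3, with Benjamini-Hochberg adjustment over all genes tested and a threshold of 0.05. The interaction used edgeR with library as a block. Class ratios were tested with an exact sign-flip test over 9 libraries (512 flips), with an offset of 1 CPM, for genes with at least 10 UMIs in each library, adjusted over 82992 tests of all genes and classes. The planned adjustment over members alone was replaced by this stricter one. DESeq2 1.42.0 was an alternative. The edgeR and limma-voom fits, the interaction and the sign-flip test were run on simulated data with a single fixed spread. The stage rule and the 2 times rule of the tumours were not. Wild-type libraries are pools of 2 females, and the MPA+E p-values measure the spread between such pools. In the lesion fit the normal group is 1 puberty and 1 adult library, so its spread includes the difference of stage. The lesion libraries of a group come from mice of 45 and 17 weeks. The class p-values are over 9 libraries of different stages and treatments. Hyperplasia and tumour of a number share a mouse by the labels, and the deviations of the same-mouse libraries from their group means had a correlation of 0.0729 over 15825 genes. With mouse as a block 21 of 40 members were called, among them all 18, against 6089 of all 16302 genes.

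In each comparison the members called and the 10 others with the largest change are named, for stages those with at least 5 CPM and a ratio of at least 2, and for classes the 15 largest called ratios. Positions are from GENCODE on GRCm38 and upstream sequences from RefSeq on GRCm38.p6.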

Additional observations from a re-analysis of the deposited data

Results flagged for a closer look

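The following results met a fixed rule for a closer look. The effect of MPA+E differed between the progenitor class and the other fibroblasts, by edgeR's interaction test, for Wnt5a (difference of log2 fold changes -1.08) and Dkk3 (-1.22).

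Epithelial barcodes, which enter no comparison, carried a Wif1 level of 377 CPM in hyperplasia 2 (95 barcodes, 308 UMIs) and 916 CPM in tumour 2 (134 barcodes, 1181 UMIs), above the highest of the 3 stage and placebo libraries with at least 30 such barcodes (122 CPM in placebo 2). Lgr6 in the same barcodes was at 140 CPM in hyperplasia 2 and 198 CPM in tumour 2, against at most 57.2 CPM in those libraries. These are values of single libraries with no test.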

How the results depend on the processing

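Of 1202 values of single genes under alternatives, 56 newly passed the threshold, 148 no longer passed it, 11 changed sign, 12 stage ratios moved and the others kept their direction and side of the threshold (or moved by less than their error). The members called between MPA+E and placebo numbered 11, and 18 with DESeq2 and 9 to 13 with other tools, filters and barcode limits. Of all genes 678 of 15642 were called, 1358 of 15642 with DESeq2 and 582 to 747 of 15534 to 22933 with the others. Leaving out each library in turn gave 0 to 15 for MPA+E, 3 to 26 for tumour against hyperplasia, 0 to 19 for hyperplasia against normal and 2 to 5 for the interaction, where a group's lone library was assumed to vary like the others. For MPA+E and the lesion comparisons, calls over all genes fell or rose together with those of the members in every such fit. A change in these counts is thus not particular to the members. In the interaction the calls over all genes did not always move with those of the members. Hyperplasia against normal gave 14 members, and 7 without the ECM remodelling class. The settings without the progenitor, myofibroblastic or ECM remodelling class or the pregnancy library were chosen after seeing the data. With the replicate number as a block 25 of 40 members were called under MPA+E, against 2451 of all 15642 genes. The deviations of same-numbered libraries had a correlation of 0.375, but with 2 pairs and no label that ties them the libraries share only a number.

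No call reversed. Sign changes were in members that were not called. Over the fits that left out 1 library, the tumour against hyperplasia change ran from -2.30 to 0.040 for Sfrp4 and -1.32 to 0.22 for Fzd4 (positive without tumour 2), -0.26 to 1.35 for Rspo2 and -1.09 to 0.10 for Notum (both reversed without tumour 1). In the interaction it ran from -7.58 to 5.28 for Sfrp5, -0.68 to 6.16 for Wnt6, -2.38 to 2.61 for Wif1 and -2.25 to 0.13 for Wnt2b. With a class score of at least 3 Tcf7 was at 1.00, Sfrp5 at 1.46 and Wif1 at -2.30 (opposite in sign to the interaction given above). The cause was not tested. Depth limits members under 1 CPM, such as Lef1 and Lgr6, whose values rest on few UMIs.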
